A study of Mus musculus with 8 samples.

Results

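The 10 genes described here carry iron into cells, store it, let it out, hand it to mitochondria or sense it. They are Tfrc, Tfr2, Steap3, Slc11a2, Slc40a1, Fth1, Ftl1, Ireb2, Aco1 and Slc25a37, taken by gene symbol from the 21991 gene IDs with annotated exons. Their reads were followed in RNA-seq libraries of 2 bone marrow cell fractions of C57BL/6 mice aged 8 to 10 weeks. The HSC group (4 libraries) was sorted as lineage-negative, c-Kit-positive, Sca1-positive, CD150-positive and CD34-negative cells, the gate of long-term hematopoietic stem cells. The HPC group (4 libraries) came from the same gate except that its cells were CD34-positive, the surface state of early progenitors. Titles, cell type and surface markers set the groups apart, although the source name given with the HPC libraries is that of stem cells. No genotype or treatment sets the groups apart. The protocol given for all 8 libraries names 5000 sorted cells, ISOGEN extraction and 18 cycles of PCR, and speaks of HSC only. Whether libraries of a group came from separate animals or sorts is not stated, and the p-values therefore reflect variation between libraries that may be technical.

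Cells take up iron bound to transferrin, the iron carrier of plasma, through transferrin receptor 1. In the acidic endosome iron is released, reduced by STEAP3 and moved to the cytosol by DMT1, from where it goes to mitochondria for heme and iron-sulfur clusters, into ferritin shells for storage, or out of the cell through ferroportin. The iron regulatory proteins IRP1 and IRP2 bind hairpins in mRNA, the iron-responsive elements, when iron is scarce. Bound in a 3′ untranslated region, as in Tfrc, they protect the mRNA from decay, and bound in a 5′ untranslated region, as in ferritin and ferroportin mRNA, they block translation, which a read count does not show. In bone marrow, erythroid precursors take up most iron for hemoglobin, and macrophages return iron from old red cells.

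The hairpins of Tfrc, Slc40a1, Fth1 and Ftl1 are shown because they have the usual form of those that the iron regulatory proteins bind. The pattern searched on the transcript's strand was a bulged C, any 5 bases, CAGTG and any 1 base, where the 5 bases before CAGTG pair with the 5 bases after that last base (G to U pairs allowed). Capitals mark the bulged C and the loop. Sequences are from GENCODE M21 transcripts on GRCm38, 5′ to 3′.
Tfrc, 3′ UTR, chr16:32631219-32631248, plus strand: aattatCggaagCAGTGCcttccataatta
Tfrc, 3′ UTR, chr16:32631598-32631627, plus strand: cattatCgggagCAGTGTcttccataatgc
Tfrc, 3′ UTR, chr16:32631663-32631692, plus strand: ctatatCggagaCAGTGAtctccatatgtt
Tfrc, 3′ UTR, chr16:32631710-32631739, plus strand: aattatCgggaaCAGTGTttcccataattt
Slc40a1, 5′ UTR, chr1:45925464-45925493, minus strand: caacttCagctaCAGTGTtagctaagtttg
Fth1, 5′ UTR, chr19:9982732-9982761, plus strand: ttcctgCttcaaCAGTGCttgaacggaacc
Ftl1, 5′ UTR, chr7:45459778-45459807, minus strand: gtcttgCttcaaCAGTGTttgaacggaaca

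The pattern was found in the 3′ UTR of 107 of 20911 protein-coding genes (0.512%) and in the 5′ UTR of 20 of 20831 (0.096%). Of the 3385 3′ UTRs at least as long as that of Tfrc (2458 bases), 1.03% held a match in that length. Among the 3′ UTRs searched, with 1 transcript per gene, 1 held more than a single match, that of Tfrc with its 4. For the 5′ UTR stretches next to the start codon, 0.179% of those as long as that of Slc40a1, 0.0778% of those as long as that of Fth1 and 0.144% of those as long as that of Ftl1 held a match. The other 6 genes had no match to this pattern, letters and paired stem together, in the UTRs searched. Sites with the letters but a stem not fully paired were not counted. A gene without a match may therefore still hold an element of another form. Matches were found in 1 of 2 Tfrc transcripts with a 3′ UTR and in 1 of 2 Ftl1 transcripts with a 5′ UTR. A match describes the sequence and was not tested for binding.

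Total exon reads of all genes came to 16291733 to 19070313 in HSC libraries and 18223082 to 20564901 in HPC libraries, and 12751 genes passed the filter on low counts, all 10 iron genes among them. The share of exon reads that cross an exon-exon junction was 48.6% to 56.8% in HSC and 51.7% to 56.6% in HPC. The RNA of the sort markers was detected in both groups. Cd34 averaged 120.2 ± 15.4 CPM in HSC against 1276 ± 55.9 CPM in HPC (CPM, exon reads scaled to library size with TMM factors, SD, n = 4 each). Slamf1, which encodes CD150 and was gated positive in both, averaged 37.6 ± 6.02 CPM in HSC against 3.14 ± 0.736 CPM in HPC. Ly6a, which encodes Sca1, averaged 131 ± 16.0 CPM in HSC against 72.1 ± 8.02 CPM in HPC, and Kit averaged 924 ± 185 CPM in HSC against 746 ± 66.4 CPM in HPC.

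The comparison asks how the iron genes differ between the CD34-negative and the CD34-positive fraction. In HSC the genes for uptake and export were higher, with Slc40a1 2.80-fold, Tfr2 2.21-fold, Slc11a2 2.18-fold, Steap3 2.06-fold and Tfrc 1.56-fold above HPC. Of the ferritin genes, the light chain Ftl1 was 1.39-fold higher and the heavy chain Fth1 did not pass the test. The mitochondrial carrier Slc25a37 and the iron regulatory protein gene Ireb2 were lower, 1.60-fold and 1.47-fold. Aco1 did not pass the test. In all, 6 of the 10 genes were higher and 2 lower (adjusted p below 0.05 over 12751 genes, Benjamini-Hochberg, quasi-likelihood F test of edgeR), where 37.1% of all genes tested were called, 19.6% higher and 17.6% lower. The same 8 genes had HSC libraries that did not overlap the HPC libraries, which 36.7% of all genes did, 19.5% with HSC above and 17.2% with HSC below. The median log2 change, HSC over HPC, was 0.56 over the 10 genes and 0.00 over all genes tested.

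**Figure D1:**
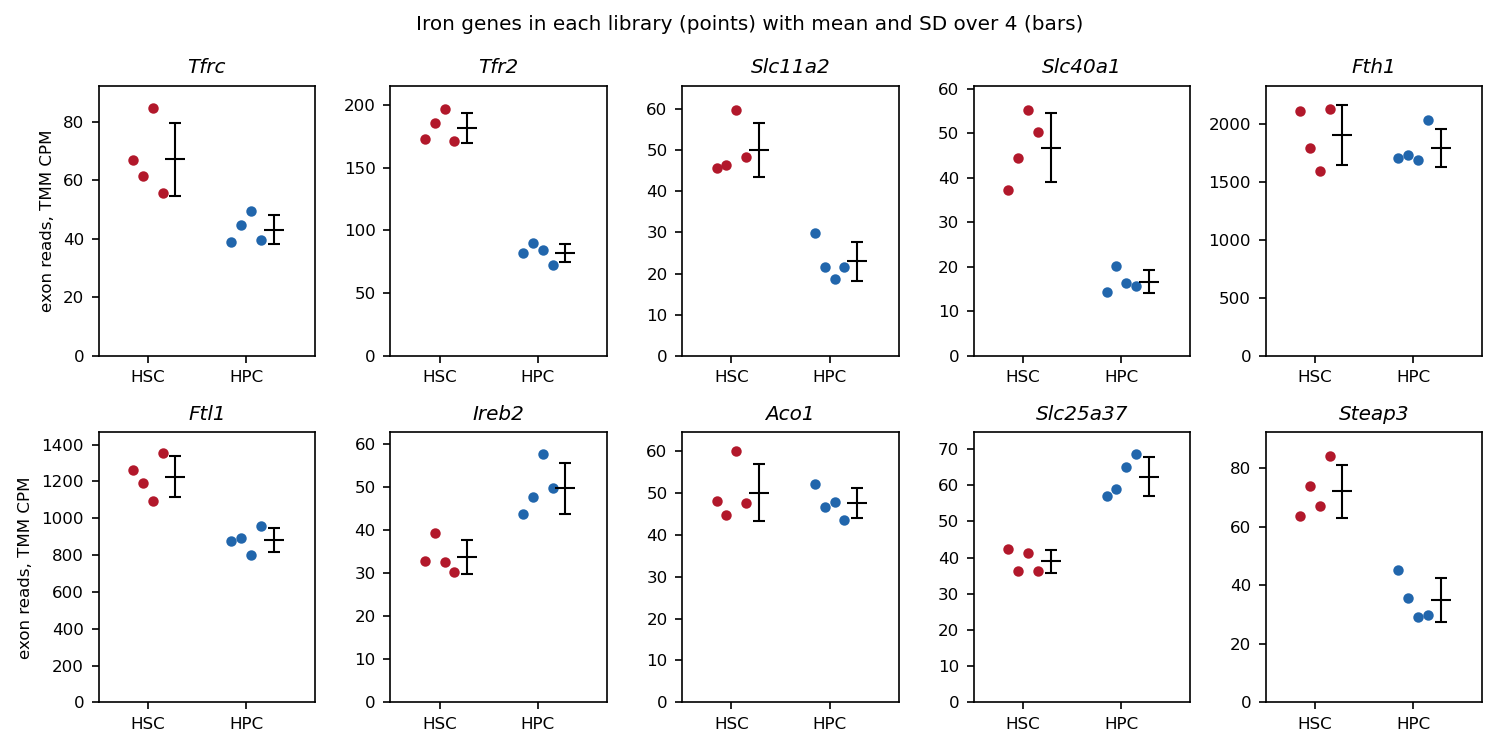
TMM-scaled exon reads (CPM, vertical axes from 0) of the 10 iron genes in the 4 HSC (red, left) and 4 HPC (blue, right) libraries, with mean and SD as bars. HSC points lie above all HPC points for Tfrc, Tfr2, Slc11a2, Slc40a1, Ftl1 and Steap3, below them for Ireb2 and Slc25a37, and among them for Fth1 and Aco1.

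Transferrin uptake begins at the cell surface. Tfrc, gene ID 22042 at chr16:32608896-32632794 on the plus strand of mm10, encodes transferrin receptor 1. It had 67.0, 61.4, 84.8 and 55.6 CPM in the 4 HSC libraries, against 39.0, 44.8, 49.4 and 39.5 CPM in the 4 HPC libraries. HSC replicate 3 was the highest of the 8, and the lowest HSC library still stood above the highest HPC library. The means were 67.2 ± 12.6 CPM in HSC against 43.2 ± 4.92 CPM in HPC (SD, n = 4 each), and the log2 change was 0.64 ± 0.14 (SE) with an edgeR adjusted p of 0.0022.

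Tfr2, gene ID 50765 at chr5:137569821-137588081 on the plus strand, encodes transferrin receptor 2, which binds iron-loaded transferrin and takes part in iron sensing in liver and in erythroid cells. Its exons drew 173, 186, 197 and 171 CPM in HSC libraries, against 81.8, 90.0, 84.2 and 72.6 CPM in HPC libraries. Every HSC library was far above every HPC library. The log2 change of 1.14 ± 0.10 had the smallest adjusted p of the 10 genes, 3.6e-07 in edgeR.

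Per kilobase of exon, Tfr2 stood above Tfrc in both groups, with 46.1 ± 3.06 CPM per kb in HSC and 20.9 ± 1.84 CPM per kb in HPC, and Tfrc had 12.98 ± 2.43 CPM per kb in HSC and 8.35 ± 0.951 CPM per kb in HPC. The ratio of Tfrc to Tfr2 within a library was 0.295, 0.251, 0.328 and 0.248 in HSC and 0.363, 0.379, 0.447 and 0.414 in HPC, per kilobase. All 4 HSC ratios lay below all 4 HPC ratios, a mean log2 difference of -0.52. The two-sided exact permutation test gave p = 0.0286, the smallest that 4 against 4 libraries allow, and 0.0571 after Benjamini-Hochberg adjustment over the 4 ratios tested, so the difference did not pass.

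Inside the endosome STEAP3 and DMT1 act in turn. Steap3, gene ID 68428 at chr1:120226414-120271082 on the minus strand, encodes the reductase that turns ferric into ferrous iron in erythroid endosomes. It had 63.5, 73.8, 67.0 and 84.1 CPM in HSC libraries, against 45.2, 35.5, 29.3 and 29.7 CPM in HPC libraries. The groups were apart, and HPC replicate 1 was the highest of its group. Steap3 averaged 72.1 ± 9.06 CPM in HSC against 34.9 ± 7.42 CPM in HPC, a log2 change of 1.04 ± 0.15 (adjusted p = 6.6e-05, edgeR).

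Slc11a2, gene ID 18174 at chr15:100387898-100424214 on the minus strand, encodes DMT1, the carrier that moves ferrous iron out of the endosome. It had 45.8, 46.3, 59.8 and 48.4 CPM in HSC libraries, against 29.8, 21.7, 18.8 and 21.5 CPM in HPC libraries. HSC replicate 3 was again the highest and HPC replicate 1 the highest of the HPC libraries, with no overlap. The log2 change was 1.13 ± 0.16, with an edgeR adjusted p of 4.7e-05. The gene overlaps 1 annotated row on the opposite strand, Gm5475, which held 19 reads over all 8 libraries.

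Iron leaves a cell through ferroportin, its known iron exporter, encoded by Slc40a1 (gene ID 53945, chr1:45908070-45926536, minus strand). Slc40a1 had 37.3, 44.4, 55.2 and 50.3 CPM in HSC libraries, against 14.4, 20.2, 16.4 and 15.8 CPM in HPC libraries. The lowest HSC library lay well above the highest HPC library. The means of 46.8 ± 7.72 CPM in HSC against 16.7 ± 2.48 CPM in HPC gave a log2 change of 1.48 ± 0.16, the largest of the 10 genes (adjusted p = 3.3e-06, edgeR). HSC replicate 3 was the highest HSC library for Slc40a1 as for Tfrc, Tfr2 and Slc11a2. Without it the log2 change was 1.40 for Slc40a1, 0.51 for Tfrc, 1.11 for Tfr2 and 1.04 for Slc11a2, and all 4 were still called. The ratio of Slc11a2 to Slc40a1 within a library averaged 0.579 ± 0.0596 in HSC and 0.756 ± 0.242 in HPC per kilobase. These ratios overlapped between the groups (exact permutation p = 0.171, also 0.171 after adjustment), with HPC replicate 1 at 1.11 and the other HPC libraries at 0.575 to 0.731.

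Ferritin stores iron in shells of heavy and light chains, of which the heavy chain oxidises iron. Fth1, the heavy chain (gene ID 14319, chr19:9980600-9985111, plus strand), had 2107, 1792, 1592 and 2129 CPM in HSC libraries, against 1708, 1734, 1686 and 2031 CPM in HPC libraries. The groups overlapped, with HSC replicate 3 the lowest and HSC replicate 4 the highest of all 8. The log2 change of 0.09 ± 0.11 did not pass (adjusted p = 0.58, edgeR), and its 95% interval ran from -0.15 to 0.33. That interval allows a fold, HSC over HPC, of 0.899 to 1.26.

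Ftl1, the light chain (gene ID 14325, chr7:45457944-45459886, minus strand), had 1261, 1190.2, 1094 and 1355 CPM in HSC libraries, against 875, 894, 802 and 959 CPM in HPC libraries. No library of one group reached the range of the other. The means were 1225 ± 110 CPM in HSC against 883 ± 64.5 CPM in HPC, a log2 change of 0.47 ± 0.10 (adjusted p = 0.0015, edgeR).

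Reads of ferritin genes can be shared with near-identical copies elsewhere in the genome, so the uniquely placed reads were read beside the total. Of the exon reads of Ftl1, 34.4% to 38.4% were unique over the 8 libraries, and for Fth1 nearly all were. On unique exon reads alone Ftl1 averaged 447 ± 52.0 CPM in HSC against 321 ± 23.1 CPM in HPC, with a log2 change of 0.47 ± 0.10 (adjusted p = 0.0018, edgeR). The rows picked by a ferritin pseudogene name held 0 gene reads for Fth1 (2 rows) and 42 for Ftl1 (3 rows) over all libraries. Copies listed under other names were not looked for. How the counting placed shared reads of Ftl1 is not given in the sources used here, so its total level is uncertain. The ratio of Fth1 to Ftl1 within a library was 1.72, 1.55, 1.499 and 1.62 in HSC and 2.01, 1.997, 2.17 and 2.18 in HPC, per kilobase of exon on total reads. All 4 HSC ratios were below all 4 HPC ratios, a mean log2 difference of -0.39 (two-sided exact permutation p = 0.0286, the smallest possible, and 0.0571 adjusted over 4 ratios).

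The iron regulatory proteins come from Ireb2 and Aco1. Ireb2 (gene ID 64602, chr9:54863665-54912534, plus strand) encodes IRP2, which is degraded when iron is plentiful. It had 32.7, 39.3, 32.5 and 30.3 CPM in HSC libraries, against 43.6, 47.6, 57.7 and 49.7 CPM in HPC libraries. The highest HSC library was below the lowest HPC library, and Ireb2 fell by 0.56 on the log2 scale in HSC relative to HPC (SE 0.13, adjusted p = 0.0032, edgeR).

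Aco1 (gene ID 11428, chr4:40143265-40199009, plus strand) encodes IRP1, a protein that works as an aconitase when it holds an iron-sulfur cluster and binds RNA when it does not. It had 48.0, 44.6, 59.9 and 47.5 CPM in HSC libraries, against 52.1, 46.6, 47.8 and 43.5 CPM in HPC libraries. The groups overlapped, and HSC replicate 3 was the only library above all the rest. The log2 change was 0.07 ± 0.12 (adjusted p = 0.67, edgeR), with a 95% interval of -0.19 to 0.34, and it was -0.015 without HSC replicate 3.

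Within a library the ratio of Aco1 to Ireb2 per kilobase was 2.54, 1.96, 3.19 and 2.71 in HSC and 2.06, 1.69, 1.43 and 1.51 in HPC. HSC replicate 2 lay within the HPC range, and the exact permutation test gave p = 0.0571, or 0.0762 after adjustment.

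Slc25a37 (gene ID 67712, chr14:69241848-69285103, minus strand) encodes mitoferrin 1, which carries iron into mitochondria and is best known from erythroid cells. It had 42.3, 36.4, 41.1 and 36.2 CPM in HSC libraries, against 56.9, 59.0, 64.9 and 68.7 CPM in HPC libraries. All HSC libraries stood below all HPC libraries, and Slc25a37 fell by 0.68 on the log2 scale (SE 0.11, adjusted p = 0.00026, edgeR).

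The reads of this gene were unusual in kind. On average 1.98% ± 0.872 of its exon reads in HSC and 2.47% ± 0.311 in HPC crossed an exon-exon junction, where the other 9 genes had means of 23.7% to 76.7%. On exon-exon reads the log2 change of Slc25a37 was -0.96 ± 0.38 and did not pass (adjusted p = 0.071, edgeR). The annotated rows that overlap it, Gm31896 and Gm20236, held 0 reads each. Which of its transcripts the exon reads come from was not tested.

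**Figure D2:**
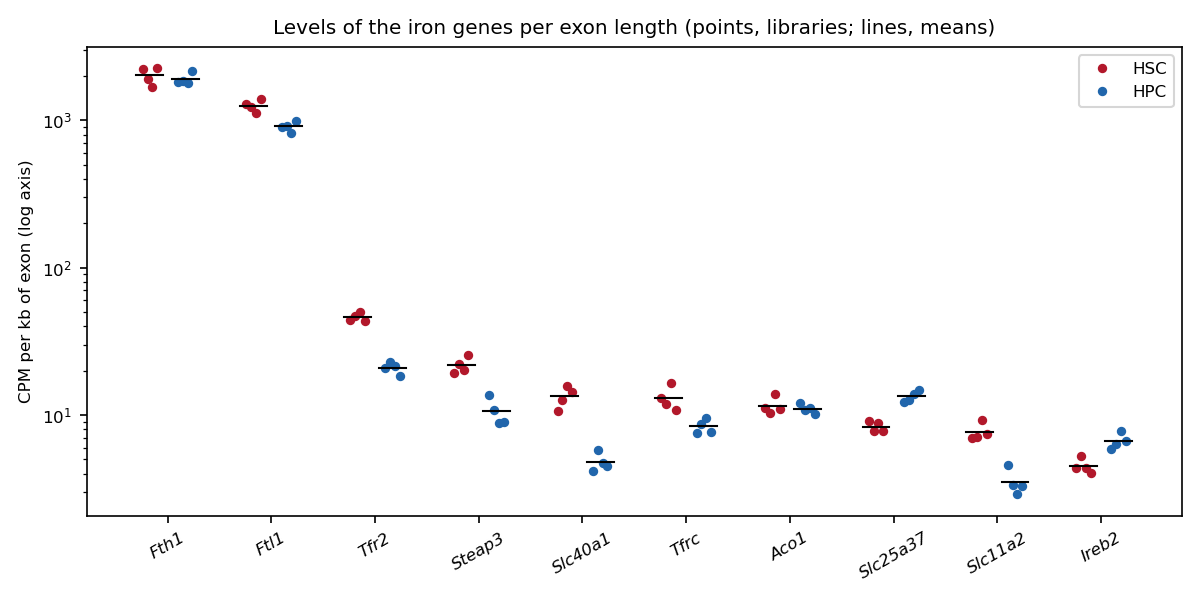
Exon reads per library size and kilobase of exon (CPM per kb, log axis) of the 10 iron genes, ordered by their HSC mean, in the HSC (red, left of each pair) and HPC (blue, right of each pair) libraries, with means as lines. Fth1 (mean 2022 in HSC) and Ftl1 (mean 1263 in HSC) lie far above the other 8 genes in both groups, of which Tfr2 (mean 46.1 in HSC) is the highest.

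Set per exon length, the ferritins stood far above the rest. Fth1 had 2022 ± 275 CPM per kb in HSC and 1900.1 ± 172 CPM per kb in HPC, rank 29 in HSC and rank 32 in HPC of the 12751 genes tested, on total exon reads. Ftl1 had 1263 ± 114 CPM per kb in HSC and 909.8 ± 66.5 CPM per kb in HPC, rank 53 in HSC and rank 84 in HPC. Together they made up nearly all of the summed level of the 10 genes, with Fth1 at 59.3% and Ftl1 at 37.0% of it in HSC, and Fth1 at 65.8% and Ftl1 at 31.5% in HPC. On unique exon reads, where Ftl1 had 461 ± 53.6 CPM per kb in HSC and 331 ± 23.8 CPM per kb in HPC, these shares were 77.5% for Fth1 and 17.7% for Ftl1 in HSC, and 82.3% for Fth1 and 14.3% for Ftl1 in HPC.

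Below the ferritins and Tfr2, the order in HSC was Steap3 (21.8 CPM per kb), Slc40a1 (13.4), Tfrc (12.98), Aco1 (11.6), Slc25a37 (8.34), Slc11a2 (7.68) and Ireb2 (4.52). Slc40a1 and Tfrc, Tfrc and Aco1, and Slc25a37 and Slc11a2 had overlapping library ranges there. In HPC the order below Tfr2 was Slc25a37 (13.3 CPM per kb), Aco1 (11.0), Steap3 (10.6), Tfrc (8.35), Ireb2 (6.65), Slc40a1 (4.79) and Slc11a2 (3.52). There Aco1 and Steap3, Steap3 and Tfrc, Tfrc and Ireb2, and Slc40a1 and Slc11a2 had overlapping ranges. The exporter Slc40a1 was thus at place 5 of the 10 in HSC and place 9 in HPC, and Slc25a37 was at place 8 in HSC and place 4 in HPC. The places of Slc25a37 rest on its full annotated exon length of 4676 bases. Few of its exon reads crossed a junction (1.98% in HSC, 2.47% in HPC), and whether they cover that length was not tested.

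Intron reads, which unspliced RNA gives, were a further readout from the same libraries and no independent replicate. For 1 of the 10 genes, Tfr2, the intron reads changed past the threshold (log2 1.03 ± 0.14, adjusted p = 6.9e-05, edgeR), where 21.1% of the 12641 genes tested on intron reads were called, 11% higher and 10.1% lower. Its intron reads came to 129.7, 139.6, 164 and 178 intron CPM in HSC, against 71.0, 77.5, 72.9 and 77.2 intron CPM in HPC. Exons and introns of Tfr2 thus had log2 changes of 1.14 and 1.03, side by side.

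Tfrc had another pattern. Its intron reads came to 27.6, 20.9, 20.4 and 22.8 intron CPM in HSC, against 33.2, 28.6, 35.9 and 27.97 intron CPM in HPC, from 88 to 122 intron reads per HSC library and 108 to 177 per HPC library. All HSC values lay below all HPC values, as 12.2% of genes did in that direction (24.6% in either direction, 12.4% with HSC above), and the intron change of -0.46 ± 0.22 did not pass (adjusted p = 0.16, edgeR). The intron reads made up 9.80%, 8.14%, 5.66% and 7.70% of the exon and intron reads of Tfrc in HSC, against 16.6%, 13.2%, 16.6% and 13.1% in HPC. Again no library overlapped, which held for 7.14% of 11352 genes in either direction (3.54% with HSC above, 3.6% with HSC below). The exact permutation p was 0.0286, the smallest that 4 against 4 libraries allow, or 0.286 adjusted over the 10 genes. A single gene at that smallest p could not pass this adjustment.

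A model of exon and intron reads together, chosen after the intron values had been seen, tested whether the exon change exceeded the intron change. For Tfrc it did, by 1.08 ± 0.23 on the log2 scale (adjusted p = 0.028, edgeR, 11396 genes), where 1.79% of genes were called, 1.09% above 0 and 0.702% below 0. This call was lost on leaving out any 1 of 5 libraries. The adjusted p was 0.075 without HSC replicate 2, 0.080 without HSC replicate 3, 0.094 without HPC replicate 1, 0.077 without HPC replicate 3 and 0.063 without HPC replicate 4, with differences of 0.91 to 1.18 over the 8 single left-out libraries. Tfrc is also the gene whose 3′ UTR holds the 4 hairpins printed above, and the stability of its mRNA was not measured.

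None of the other 9 genes passed that test, with adjusted p from 0.33 for Fth1 (0.44 ± 0.18) to 0.95 for Aco1 (0.10 ± 0.33). Intron reads were few for several of them, with 0 to 30 per library for Slc40a1 and 7 to 47 for Steap3, and the SE of their differences was 0.63 and 0.54. The share of intron reads was highest for Ireb2, at 36.1% ± 2.18 in HSC and 32.1% ± 5.97 in HPC. The intron reads of Slc25a37 ran from 36 to 121 in HSC libraries and 107 to 192 in HPC libraries, and its intron change of -0.90 ± 0.33 did not pass (adjusted p = 0.068, edgeR). It passed without HSC replicate 4 (-1.25, adjusted p = 0.011, over all left-out libraries 0.011 to 0.17), and on unique intron reads (-1.16, adjusted p = 0.028). The intron change of Fth1, -0.39 ± 0.18 (adjusted p = 0.15), passed without HPC replicate 3 (-0.57, adjusted p = 0.013, over all left-out libraries 0.013 to 0.34).

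**Figure D3:**
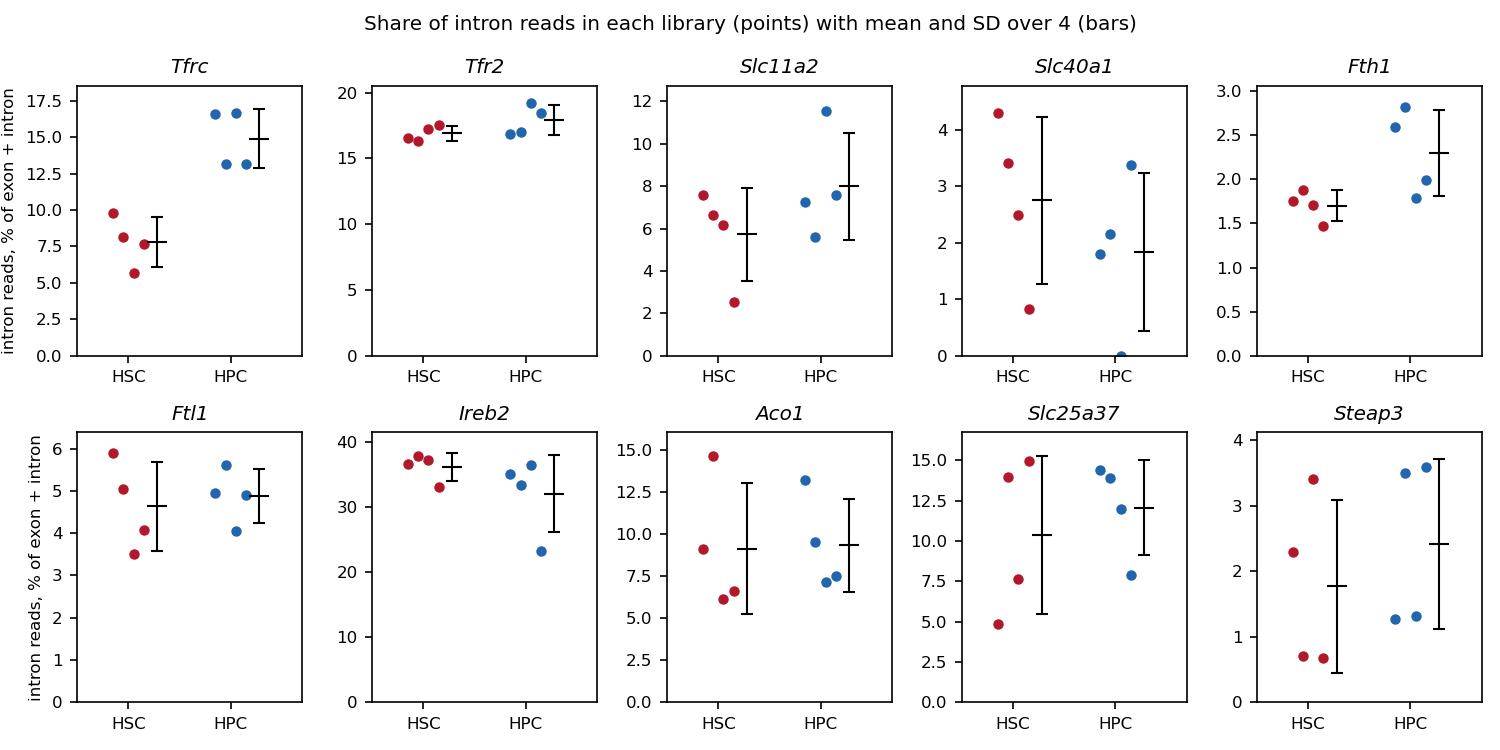
Intron reads as a percent of exon and intron reads (vertical axes from 0, different per gene) for the 10 iron genes in HSC (red, left) and HPC (blue, right) libraries, with mean and SD as bars. Tfrc is the gene whose HSC points, 5.66% to 9.80%, all lie below its HPC points, 13.1% to 16.6%.

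**Figure D4:**
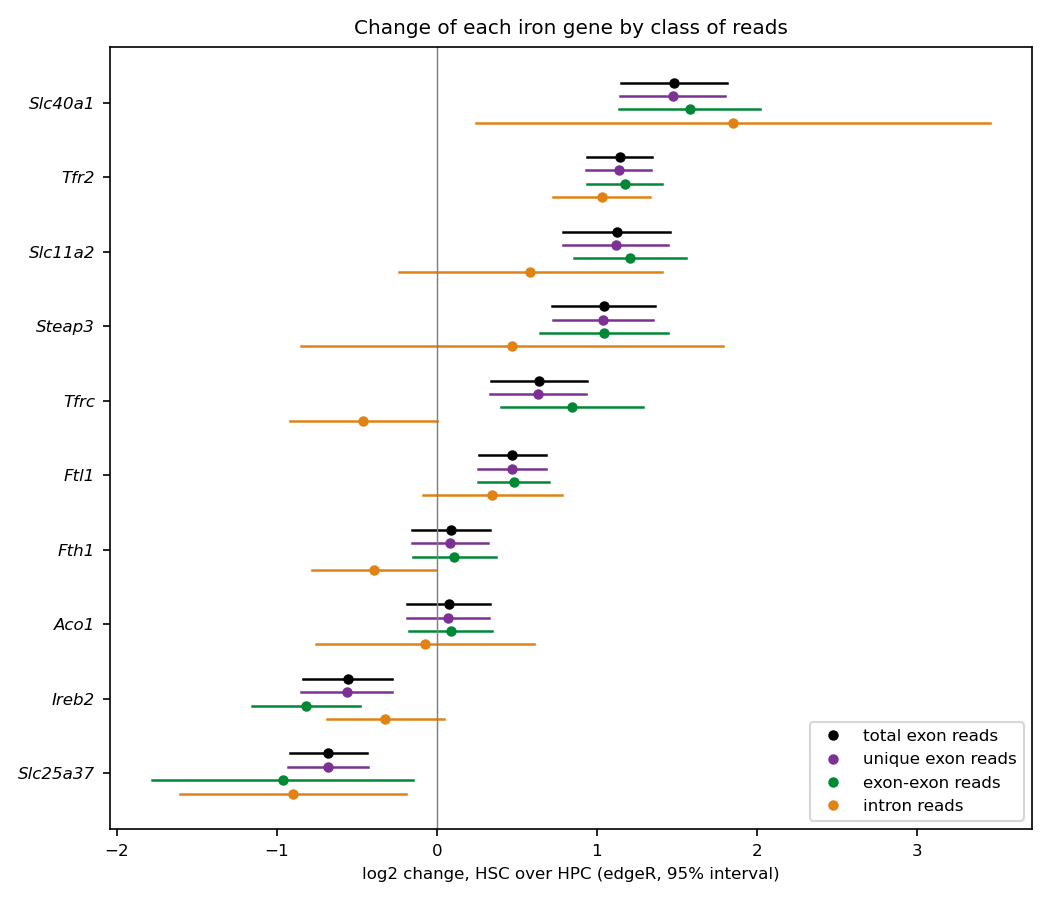
Log2 change, HSC over HPC, of each iron gene (edgeR estimate, 95% interval as line) on total exon, unique exon, exon-exon and intron reads, with the genes ordered by their change on total exon reads. The largest shifts from total exon to exon-exon reads are those of Slc25a37 (-0.68 to -0.96), Ireb2 (-0.56 to -0.82) and Tfrc (0.64 to 0.85). For Tfrc the intron estimate of -0.46 lies left of 0 with an interval that reaches 0, and its exon estimates lie right of 0.

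Around these 10 genes, 29 other iron handling genes were followed, a list of carriers, hormones, receptors, reductases and chaperones. Of them 15 were tested, 2 higher and 2 lower in HSC, with a median log2 change of -0.01, a smaller share than the 37.1% of all genes called. Bdh2, an enzyme linked to the mammalian siderophore, was higher (22.1 ± 2.23 CPM in HSC, 6.09 ± 1.81 CPM in HPC, log2 1.85 ± 0.22, edgeR adjusted p = 1.0e-05). Trf, transferrin itself, was 4.65-fold lower, with 52.8 ± 9.08 CPM in HSC against 245 ± 17.7 CPM in HPC (adjusted p = 6.5e-09, edgeR). Ncoa4, the receptor that sends ferritin to lysosomes, was 1.43-fold lower, with 196 ± 18.8 CPM in HSC against 281 ± 33.5 CPM in HPC (adjusted p = 0.0012, edgeR). Scara5, a ferritin receptor named after its values were seen, was the other gene called higher. It had 68 exon reads over the HSC libraries and 0 over the HPC libraries, so HSC reads alone took it past the filter. With a minimum of 50 reads in 4 libraries, 1 gene of this list was called higher. The hormone gene Hamp and 5 others of the list had 0 exon reads in every library.

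Of 22 genes of iron-sulfur cluster assembly, 6 were higher, 4 lower and 12 not called, with a median of 0.14, beside the 37.1% of all genes called (19.6% higher, 17.6% lower), a share these counts lie near. Isca1 (log2 0.97 ± 0.11), Lyrm4 (0.995 ± 0.17) and Glrx5 (0.74 ± 0.15), all assembly factors of the mitochondrion, were higher in HSC. Fdxr, which feeds electrons to the pathway (-0.58 ± 0.12), and Nubp1, a scaffold of the cytosolic pathway (-0.51 ± 0.13), were lower. The adjusted p of these 5 genes in edgeR lay between 4.3e-06 and 0.0050.

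Among 9 enzymes of heme synthesis, 5 were higher, 1 lower and 3 not called, with a median log2 change of 0.74, beside the same 19.6% and 17.6% over all genes. Cpox (216 ± 7.56 CPM in HSC, 60.1 ± 4.21 CPM in HPC, log2 1.85 ± 0.09, adjusted p = 1.7e-09) and Fech, which inserts the iron (log2 1.04 ± 0.10, adjusted p = 1.8e-06), were higher in edgeR. Alas1, the first enzyme of the pathway in most tissues, was 1.65-fold lower, with 55.4 ± 2.995 CPM in HSC against 91.4 ± 9.65 CPM in HPC (adjusted p = 7.2e-05, edgeR).

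Of 11 genes for heme export, uptake and breakdown 10 were tested, 3 higher, 2 lower and 5 not called, with a median of 0.19, where 19.6% of all genes were higher and 17.6% lower. Blvrb, biliverdin reductase B, was 6.27-fold higher (198 ± 37.0 CPM in HSC, 31.6 ± 4.81 CPM in HPC, adjusted p = 6.0e-09, edgeR). The porphyrin exporter Abcg2 had a log2 change of 1.32 ± 0.09 and the lysosomal heme carrier Slc48a1 one of 0.89 ± 0.08, both higher in HSC. Cd163, the hemoglobin receptor of macrophages, was lower, with 4.03 ± 0.540 CPM in HSC against 13.6 ± 2.50 CPM in HPC (adjusted p = 1.9e-05, edgeR). The other gene called lower, Lrp1, was named after its values were seen and averaged 1.92 ± 0.629 CPM in HSC against 5.002 ± 1.86 CPM in HPC.

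**Figure D5:**
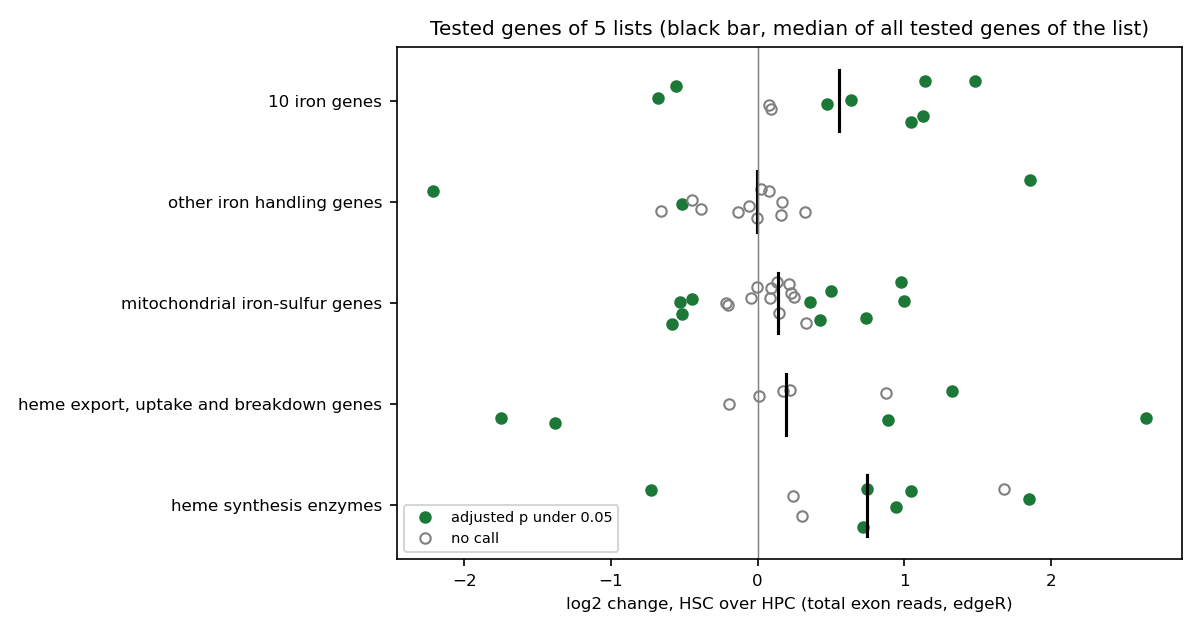
Log2 change, HSC over HPC, of each tested gene of the 10 iron genes and of 4 further lists (filled points, adjusted p under 0.05 in edgeR, and open points, no call), with the median of all tested genes of a list as a black bar. Scara5 is not drawn because it had 0 reads in HPC. The medians run from -0.01 for other iron handling genes to 0.74 for heme synthesis enzymes, and every list has called genes on both sides of 0.

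Markers of other cells were read beside the iron genes, where 19.6% of all genes tested were called higher and 17.6% lower. All 12 early erythroid markers were higher in HSC, with a summed level of 2282 to 2950 CPM in HSC libraries and 139 to 222 CPM in HPC libraries and no marker at 0 in all libraries. Car1, the most abundant, averaged 1582 ± 217 CPM in HSC against 79.8 ± 17.7 CPM in HPC, and Rhag (log2 3.74 ± 0.14) and Ermap (log2 3.91 ± 0.17) were called too. Of 9 red cell markers, 5 were higher and 4 not called, with a sum of 255 to 525 CPM in HSC against 106 to 219 CPM in HPC. Hba-a1, the most abundant, averaged 105 ± 56.2 CPM in HSC against 26.9 ± 21.9 CPM in HPC, and Hemgn (log2 0.65 ± 0.12) and Hbb-bt (log2 0.96 ± 0.26) were called as well. The part of erythroid RNA in the higher Tfrc, Tfr2, Steap3, Slc11a2 and Slc40a1, or in the lower Slc25a37 (log2 -0.68 ± 0.11), was not tested. In bulk RNA fewer cells of a type and less RNA per cell cannot be told apart.

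Macrophages, which hold much ferroportin, were followed by 11 markers, of which 10 were tested, 0 higher, 3 lower and 7 not called, with a median log2 change of -0.12 and a sum of 40.2 to 57.2 CPM in HSC against 82.9 to 117 CPM in HPC. The 3 were Cd163, Csf1r (4.02 ± 2.89 CPM in HSC, 25.4 ± 7.41 CPM in HPC) and Cd68, the most abundant (11.3 ± 2.16 CPM in HSC, 26.4 ± 7.09 CPM in HPC). Those 3 make up most of the difference in the sum. Of the 7 not called, Spic (log2 0.48), Mrc1 (0.22), C1qc (0.13) and Vcam1 (0.11) had values above 0, and C1qb (-0.011), Adgre1 (-0.22) and C1qa (-0.70) below 0. The part of macrophage RNA in any of these changes was not tested, and over all genes tested 19.6% were called higher and 17.6% lower. Of 9 neutrophil markers 6 were tested and 1 was lower, near the 17.6% called lower over all genes tested. It was Elane (20.1 ± 11.6 CPM in HSC, 108 ± 35.1 CPM in HPC). The neutrophil markers had a sum of 189 to 290 CPM in HSC against 256 to 500.4 CPM in HPC. The most abundant, Lyz2, averaged 191 ± 32.9 CPM in HSC against 262 ± 72.5 CPM in HPC and was not called.

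All 8 division markers were called lower in HSC, beside 17.6% of all genes tested. Their sum was 552 to 657 CPM in HSC against 1319 to 1734 CPM in HPC. Top2a, the most abundant, had a log2 change of -1.66 ± 0.15, Bub1 one of -1.40 ± 0.15 and Aurkb one of -1.24 ± 0.11. Tfrc, a gene long used as a marker of dividing cells, was higher in the HSC libraries, in which these 8 were lower. The part of cell division in the change of any of the 10 genes was not tested.

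For the 3 called iron genes with the largest changes, the tested genes whose levels followed theirs most closely over the 8 libraries were listed, by the root mean square difference of log2(CPM + 0.5) after centring each gene. Slc40a1 was most like Sdsl (0.121), Car2 (0.135) and the gene listed as Nadk2_1 (0.137). Tfr2 was most like Gata2, a transcription factor of stem cells and megakaryocytes (0.0388), then Eng (0.0788) and Cers4 (0.0802). Slc11a2 was most like Maged1 (0.104) and Atp6v0a1 (0.142). Gata2 averaged 380.4 CPM in HSC against 178 CPM in HPC, a log2 change of 1.10 beside the 1.14 of Tfr2. A change near that of Tfr2 follows from picking genes by this distance and is no separate result.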

How the data were processed

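Each annotated row carries deposited whole-number counts of exon, exon-exon, intron and gene reads, as totals and as uniquely placed reads, and the exon length in bases is another deposited column, per the file headers. The build was mm10, per the submitters' processing notes. For aligner, counter and use of strand, the answer is not given in the sources used here. Counts were summed per gene ID (1931 of 46113 stood on several rows). The main test was that of edgeR 4.0.16 (R 4.3.3) on total exon reads (filterByExpr, TMM, quasi-likelihood F test, no covariate, Benjamini-Hochberg over all genes tested, threshold 0.05). Changes are HSC over HPC, SE is the size of the change over the root of F, and folds are ratios of mean CPM. Intron reads were fitted likewise. The exon-minus-intron model (library as block) was added after seeing the data. Ratios were compared by exact permutation tests. Limits from read numbers cover counting error only.

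All 10 genes were named. Of each further list the 3 called genes of smallest adjusted p in each direction, with mean CPM no lower than 5, were named, and the most abundant gene of each marker list. A few genes that these rules take, nearest genes included, are not reported here. The members and lists were chosen with earlier results of these data known. On simulated counts for HSC over HPC (12615 genes), edgeR found 45 of the 100 genes set to 1.5-fold and 79 of the 100 set to 2-fold, with 136 calls in all, 12 of them false. Only 200 genes were changed there, a far smaller share than the 37.1% called in the data. These rates therefore need not hold for the main test. A chi-square check of replicate pairs found none that differed only by sampling noise.

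Alternatives were RLE and upper quartile scaling, no filter, a minimum of 50 reads in 4 libraries, a replicate block, DESeq2 1.42.0, voom of limma 3.58.1, other read classes, main assembly rows only, ferritin pseudogene reads added, the exon-exon share as covariate, and leaving out libraries.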

Additional observations from a re-analysis of the deposited data

Results flagged for a closer look

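In 68 groups of 4 libraries examined for a sample far from the others, 2 values stood apart, and chance gives about 1 in 20 groups. The intron reads of Slc40a1 in HSC replicate 4 came to 2.07 intron CPM, against 5.65 to 6.32 in the other HSC libraries. Fth1 had 2031 CPM on exon reads in HPC replicate 4, against 1686 to 1734 in the other HPC libraries. Without HPC replicate 4 the log2 change of Fth1 stayed uncalled.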

How the results depend on the processing

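Over 44 results and 684 alternative values, 663 were labelled the same. That label means the same direction and side of the threshold, or for counts a value within 1.5 times. Ratios with a library left out were not tested again. For them it means the same direction and a shift smaller than the pooled SD. The 6 calls higher in HSC held under all alternatives run. On exon-exon reads 1 of the 10 genes was called lower in place of 2, with Slc25a37 at -0.96 (adjusted p = 0.071, edgeR), and with 50 reads in 4 libraries 1 other iron handling gene was called higher. On unique intron reads Slc25a37 passed (-1.16, adjusted p = 0.028). Leaving out each library gave log2 changes of -0.015 (without HSC replicate 3) to 0.12 for Aco1, and 1 to 2 lower calls among heme export genes. Intron changes ranged from -0.57 (called, without HPC replicate 3) to -0.30 for Fth1, -0.33 to 0.24 for Aco1 (0.024 without HSC replicate 3), -1.25 (called, without HSC replicate 4) to -0.65 for Slc25a37 and -0.052 to 0.73 for Steap3. Exon-minus-intron changes ranged from 0.91 to 1.18 for Tfrc, -0.93 to 0.018 for Slc40a1, -0.026 to 0.26 for Ftl1, -0.11 to 0.38 for Aco1 (-0.093 without HSC replicate 3) and -0.020 to 0.64 for Slc25a37. The causes were not tested. Same-numbered libraries deviated together with correlations of -0.18 to 0.34 over 10569 genes, and HSC replicates 1 and 2 followed another HPC number best, so the numbers were not taken as pairs. With the replicate number as a block, 6 and 2 of the 10 genes were called, as without it, and 2588 higher and 2448 lower of all genes. Few intron reads limit the intron values.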
